A study of Mus musculus with 38 samples.

Results

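The data described here are the RNA-seq profiles of MYC-2983, a mouse cell line that grew out of a kidney tumour of a Ksp-rtTA; Tet-O-MYC mouse. The 8 libraries of this line, 4 maintained on doxycycline (Dox) and 4 withdrawn from it, were taken out of 38 libraries in the series by their titles. The labels give genotype MYC+ and kidney as the source for all 8. In these mice the Ksp (cadherin 16) promoter drives rtTA in renal tubule cells, and rtTA with Dox switches on the Tet-O-MYC transgene, so that with Dox means MYC induced and no Dox means MYC withdrawn. Vhl and Cdkn2a were not engineered in this line. Per the study's methods, equal numbers of cells were plated with or without 2 µg/ml Dox and collected 24 h later. The comparison asks which genes depend on Dox when Vhl and Cdkn2a are intact. The 4 Dox and 4 no Dox libraries of VM cells (conditional Vhl inactivation with the same transgenes) and of VIM cells (as VM, with germline Ink/Arf deletion) were used only to test where MYC-2983 responded differently. MYC-2983 is 1 line from 1 tumour, nothing in the labels says that the 4 libraries of a group came from separate cultures, and the p-values therefore measure the spread between these libraries. No line without the transgene was given Dox, so the effect of MYC and that of the drug itself cannot be told apart here.

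MYC is a basic helix-loop-helix leucine zipper transcription factor that pairs with MAX and binds the E-box CACGTG. It is best known for raising the genes of ribosome production, nucleotide synthesis and cell cycle entry, and for lowering, often through MIZ1, cell cycle inhibitors and adhesion genes. MXD, MXI1 and MNT compete with it for MAX. In the kidney, MYC is amplified or active in subsets of clear cell and papillary renal cell carcinoma.

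Values are the upper quartile normalised RSEM gene estimates of the study, scaled by the study to an upper quartile of 1000 units, and every log2 change is log2(value + 1) with Dox minus that without. Depth, in M reads as estimated from the values, was 24.8 to 26.9 for the Dox libraries and 23.1 to 28.6 for the others, and 3 reads, taken as the floor of detection, were worth 1.57 to 1.97 units. Genes above 0 numbered 14855 to 14939 with Dox and 15052 to 15324 without, and the 10 most abundant genes took 3.84 to 3.98% of the reads with Dox and 5.18 to 5.36% without. No library stood apart and none was a copy of another. Kidney genes were present, among them Cdh16, the cadherin whose promoter drives rtTA, at 8373 to 9660.0 units with Dox and 12381 to 13110.4 without, and the nephric transcription factor Pax8, at 2520.4 to 2754 units with Dox and 3707 to 3972 without. The proximal tubule receptor Lrp2 was measured at 3359 to 4169 against 4440.3 to 5573 units, whereas the mature tubule genes Slc34a1 and Umod were listed at 0 in all 8 libraries. The endothelial gene Pecam1 (at most 6.58 units) and the leukocyte gene Ptprc (at most 15.7 units) were low throughout. Other markers were not. Cd14, also of the leukocyte list, had means of 357 units with Dox and 900 without, and Postn, of the fibroblast list, 9292 and 27060.

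Of the 3 engineered genes of the study, mouse Myc, at chr15:61816946-61821929 of mm9, was read at 699, 693, 651 and 661 units in the 4 libraries with Dox and 1842, 1764, 1849 and 1868 units in the 4 without. All 4 libraries with Dox lay below all 4 without, and the log2 change of Myc was -1.44 ± 0.0319 SE, with an adjusted p of 3.17e-17 (limma). Whether reads of the transgene enter this value is not stated in the sources used here, so it does not check that the transgene was on. Vhl, the von Hippel-Lindau tumour suppressor, gave 451 ± 12.2 units with Dox and 533 ± 7.51 without (SD, n = 4), a log2 change of -0.24. The corresponding means in VM cells were 13.1 units with Dox and 31 without. Cdkn2a, which encodes p16INK4A and p19ARF, gave 3171 ± 102 units with Dox and 3564 ± 210.0 without in MYC-2983 (log2 change -0.17) and had means of 30 units with Dox and 34.1 without in VIM cells. Neither Vhl nor Cdkn2a passed the 2-fold threshold in MYC-2983, and both were present in all 8 libraries at levels far above those of the lines in which they had been deleted.

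**Figure D1:**
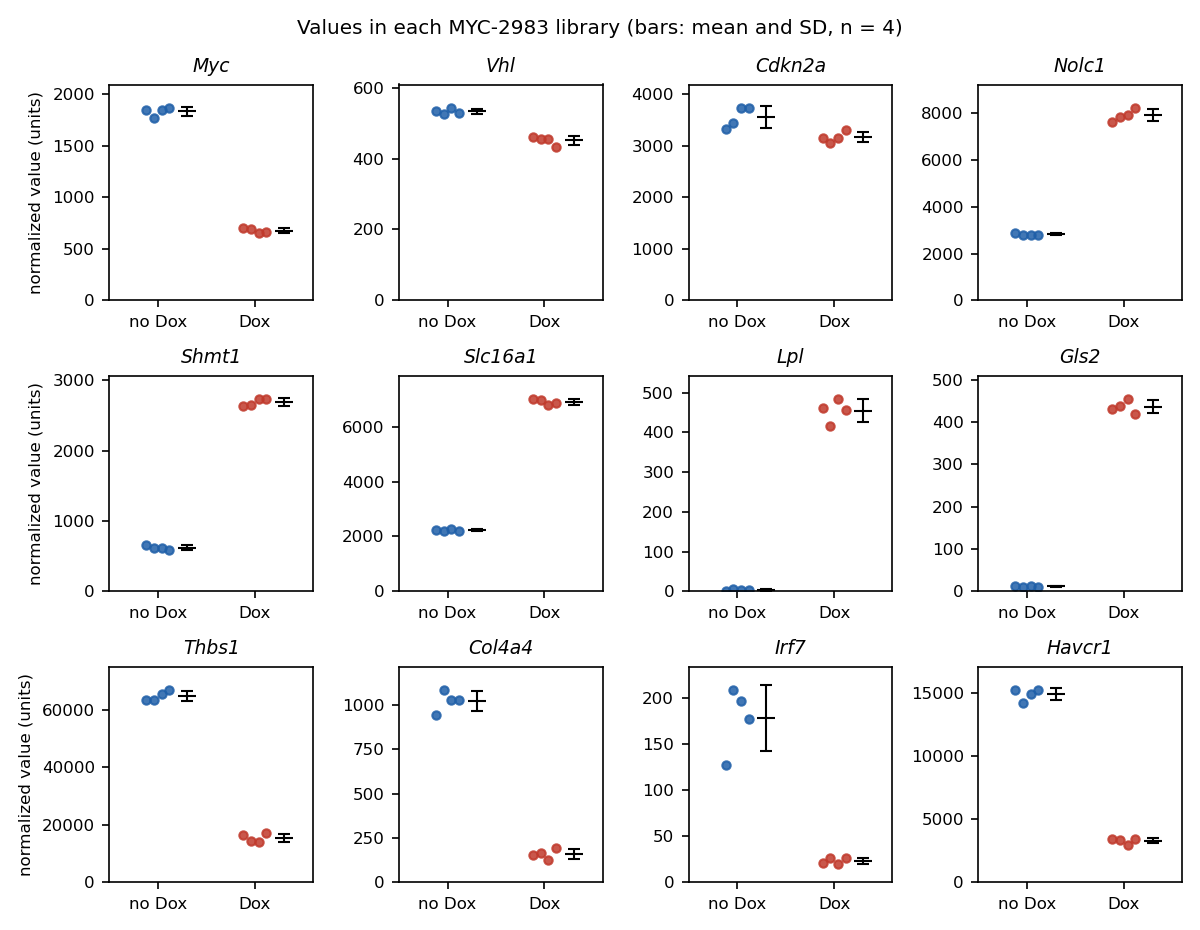
Normalised values (y axis, units, from 0) of 12 genes in each of the 8 MYC-2983 libraries, blue without Dox and red with Dox. Bars give mean and SD of 4 libraries. The groups do not overlap in any of the 12 genes, which was a condition for naming all but Myc, Vhl and Cdkn2a. Lpl and Gls2 are near 0 without Dox.

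Dox moved a large share of the transcriptome, and the genes that passed were mostly lower with it. To pass, a gene had to change by over 2-fold at an adjusted p below 0.05. Of 15104 genes tested, 2942 passed, of which 678 (4.49% of those tested) were higher and 2264 (15%) lower with Dox. Changes of more than 4-fold were found for 146 higher and 331 lower genes, and those of more than 8-fold for 42 and 41. The groups did not overlap for 2834 of the 2942 genes. These had been chosen for a difference between the same groups, so the count adds no support. By adjusted p alone, 4757 genes (31.5%) were higher and 6651 (44.0%) lower. The lower share depends on scaling. It was 77.0% of the passing genes as deposited, 69.1% after TMM rescaling (857 higher, 1914 lower) and 58% after quantile normalisation (1073 higher, 1480 lower), and TMM moved the median change (genes averaging 50 units or more) from -0.06 to 0.06. Total RNA per cell was not measured, so a change here is relative to the other genes of a library.

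**Figure D2:**
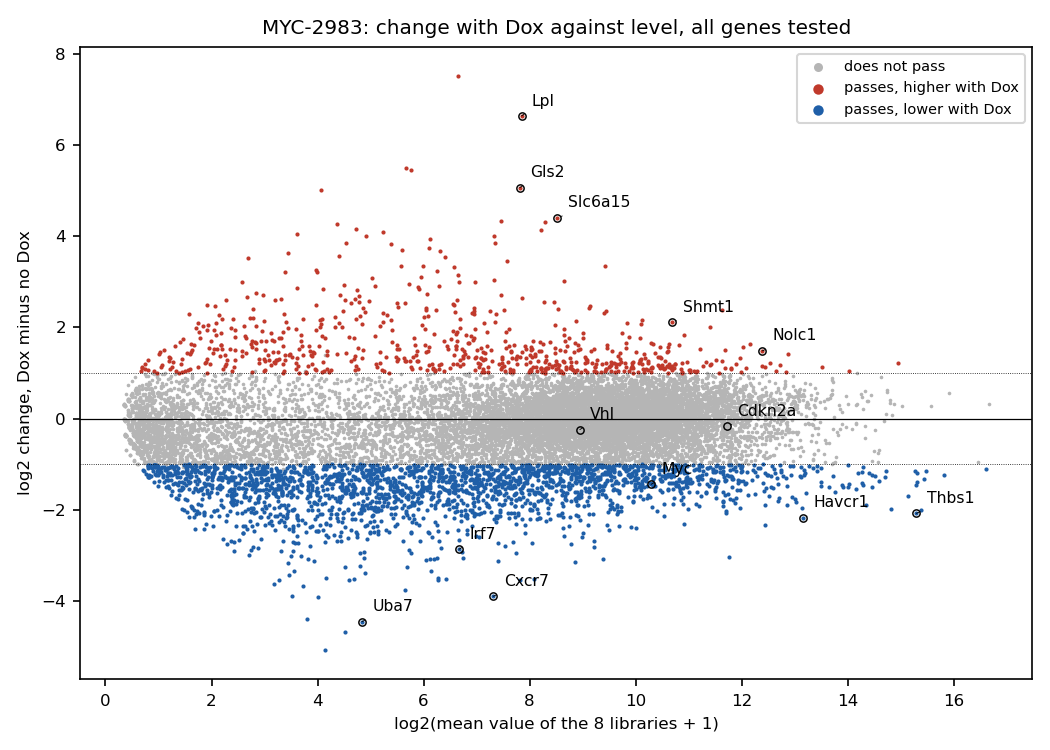
Change with Dox (y axis, log2) against level (x axis, log2 of the mean of the 8 libraries + 1) for the 15104 genes tested. Red and blue points are the 678 and 2264 passing genes, grey the others, and dotted lines mark 2-fold; circled genes are named in the text.

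Lpl, Gls2 and Slc6a15 were among the 12 largest rises. Lpl, lipoprotein lipase, which frees fatty acids from circulating triglyceride, was read at 462, 417, 485 and 455 units in the 4 libraries with Dox and 1.97, 5.92, 3.47 and 3.81 units in the 4 without. Its change, 6.63 ± 0.188 SE, was 1 of the 42 rises of more than 8-fold (adjusted p = 6.28e-16). Gls2, the liver-type glutaminase that turns glutamine into glutamate, stood at 431, 438, 456 and 419 units in the 4 libraries with Dox and 13.1, 11.2, 13.9 and 10.3 units in the 4 without, a change of 5.06 ± 0.107 SE. For Slc6a15, a neutral amino acid transporter, the values were 708, 706, 701 and 681 units in the 4 libraries with Dox and 31.5, 25, 37 and 36.5 units in the 4 without (change 4.40 ± 0.0985 SE). Without Dox the 12 values of these 3 genes were at most 37 units, and with Dox at least 417. That the groups do not overlap was a condition for the 12 largest rises.

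Other genes among the 12 largest rises were Gldc, glycine decarboxylase of the mitochondrial glycine cleavage system (63.7 to 81.6 units with Dox and 2.89 to 3.29 without), the ephrin receptor Epha8 (88.3 to 118 units with Dox and 0.66 to 2.18 without), and Tdrd1, a tudor protein of the germline piRNA pathway (320.3 to 349 units with Dox and 14.5 to 17.1 without). Camkv, a kinase-like vesicle protein of neurons, was at 522 to 587 units with Dox and 27.7 to 35.5 without, and the myosin heavy chain gene Myh7b at 53.8 to 58.2 units with Dox and 0.66 to 4.05 without. Rasd2, a small GTPase of striatum, was at 279 to 325 units with Dox and 14.5 to 22.3 without, and Lingo3 at 547 to 642 units with Dox and 24.3 to 33.2 without. AI118078, whose function is not stated here, was at 89.6 to 106 units with Dox and 0 to 3.81 without. Their log2 changes lay between 4.01 and 5.50. Sssca1 was read at 165, 94.1, 239 and 293 units with Dox and was listed at 0 in all 4 libraries without. It overlaps Fam89b on the same strand, so the split of reads between the pair is uncertain and no fold is given.

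Uba7, Cxcr7 and Lcn2 were among the 12 largest falls. Uba7, the E1 enzyme for the ubiquitin-like protein ISG15, was read at 2.24, 2.72, 1.08 and 0.52 units in the 4 libraries with Dox and 44, 61.2, 55.6 and 53.3 units in the 4 without, a change of -4.44 ± 0.263 SE. Cxcr7, the scavenging receptor for the chemokine CXCL12, had 14.5, 24.5, 22.8 and 16.2 units in the 4 libraries with Dox and 278, 294, 306 and 309.6 units in the 4 without (change -3.89 ± 0.138 SE). Lcn2, the iron-siderophore binding protein known as a marker of tubule injury, had 30.7, 57.6, 52 and 35.1 units in the 4 libraries with Dox and 489.5, 519.8, 495 and 482 units in the 4 without (change -3.52 ± 0.142 SE). In each of these 3 genes the highest value with Dox was less than the lowest without, as the choice of the 12 required.

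Also in this group were Scara5, a ferritin scavenger receptor (4.35 to 8.39 units with Dox and 83.3 to 99 without), and Slc6a18, a neutral amino acid transporter of the proximal tubule brush border (27.7 to 42.5 units with Dox and 406 to 424 without). The matrix protease Adamts16 was at 9.5 to 13.5 units with Dox and 135 to 149 without and the actin-severing protein Scin at 8.16 to 17.3 units with Dox and 121 to 159 without. Spib, an ETS factor of lymphoid cells, was at 3.81 to 4.47 units with Dox and 49.8 to 55.9 without, the GTPase Gimap8 at 6.29 to 11.2 units with Dox and 86.5 to 98.7 without, the cornified envelope gene Sprr1a at 8.94 to 14.2 units with Dox and 119 to 138 without, and Mybpc2, a myosin binding protein of fast muscle, at 84.3 to 105 units with Dox and 770.3 to 915 without. Their changes lay between -3.75 and -3.13. The remaining gene of the 12 is listed under a number in place of its symbol, as are 23 rows of the table, and is not named here.

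Known MYC-induced genes were nearly all higher with Dox, and those known MYC-repressed genes that passed were lower. In the list of 30 MYC-induced genes, 14 passed as higher and 0 as lower, the median change was 0.98 against -0.13 over all genes tested, and 29 were higher by adjusted p alone. Over all genes tested 4.49% passed as higher, 15% passed as lower and 31.5% were higher by adjusted p alone. Shmt1, the cytosolic serine hydroxymethyltransferase of one-carbon metabolism, was read at 2638, 2643, 2733 and 2737 units in the 4 libraries with Dox and 665, 615, 614 and 594 units in the 4 without (change 2.11 ± 0.0336 SE, adjusted p = 1.01e-18). Dctpp1, which hydrolyses dCTP, was at 1872 to 1927 units with Dox and 572 to 618 without. Srm, spermidine synthase, was at 6112 to 6461 units with Dox and 2055 to 2168 without. In the list of 13 MYC-repressed genes, 5 passed as lower and 0 as higher (median -0.74; 1 as higher after TMM rescaling). Thbs1, the matrix glycoprotein thrombospondin 1, had 16414, 14482, 13915 and 17132 units in the 4 libraries with Dox and 63616, 63451, 65610.0 and 67096 units in the 4 without (change -2.07 ± 0.0521 SE). Cdkn2b, the CDK4 inhibitor p15INK4B, was at 142 to 169 units with Dox and 411 to 457 without, the C/EBP factor Cebpd at 78.1 to 99 units with Dox and 278 to 367 without, and the stress-responsive gene Ndrg1 at 1034 to 1117 units with Dox and 2734 to 3003 without.

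In the MYC and MAX network itself, 2 of 14 genes passed as higher and 2 as lower. Of all genes tested 4.49% passed as higher and 15% as lower, so the lower share is near that of all genes. Mxi1, which competes with MYC for MAX, rose (1952 to 2100.0 units with Dox and 854 to 912 without, change 1.19), as did Mlxipl, the glucose-sensing factor ChREBP (104 to 128 units with Dox and 23 to 38.2 without, change 1.86). Besides Myc, its paralogue Mycn fell (11.4 to 16.2 units with Dox and 52 to 63 without, change -1.99). The median of the 14 was 0.21.

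Genes of ribosome production were higher with Dox throughout. All 44 listed ribosome biogenesis genes were higher by adjusted p alone, where 31.5% of all genes tested were. The 2-fold threshold was passed by 18 (26 after TMM rescaling), where 4.49% of all genes passed as higher. The median was 0.93 and the range was from 0.32 to 1.58. Nolc1, a nucleolar phosphoprotein that chaperones small nucleolar ribonucleoproteins, was read at 7626, 7849, 7931 and 8236 units in the 4 libraries with Dox and 2879, 2808, 2783 and 2812 units in the 4 without. The groups were far apart and the change was 1.49 ± 0.0267 SE (adjusted p = 3.48e-18). Rrp1b, of ribosomal RNA processing, was at 2079 to 2163 units with Dox and 684 to 732 without, Nhp2, of the H/ACA particles that guide pseudouridylation, at 4045 to 4189.7 units with Dox and 1688 to 1719.9 without, and the rRNA methyltransferase Fbl at 665 to 889 units with Dox and 285 to 333 without. In RNA polymerase I and III, 3 of 26 passed as higher and 0 as lower (5 higher after TMM rescaling, median 0.61). These were Polr1b, the second largest subunit of polymerase I (2281 to 2417 units with Dox and 747 to 837 without), Polr1e, of the same enzyme (940.3 to 1039.7 units with Dox and 458 to 513 without), and Polr3g, a subunit of polymerase III (560.1 to 635 units with Dox and 194 to 226 without).

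The proteins of the ribosome were also mostly higher, by a smaller median. Of 77 cytosolic ribosomal protein genes, 2 passed as higher and 0 as lower, while 72 were higher by adjusted p alone, and the median was 0.46. The 2 were Rpl36a and Rpl27, both low for ribosomal protein genes (114 to 164 against 18.4 to 99 units; 53.7 to 83.3 against 28.9 to 37.4 units), and such genes share reads with processed pseudogenes, so both are uncertain. Rpl36a did not pass without the first no Dox library (0.61). For 75 mitochondrial ribosomal proteins the median was 0.44 (Mrpl23 higher, 0 lower) and for 20 cytosolic aminoacyl-tRNA synthetases 0.34 (0 and 0). For 56 genes with Eif symbols, which are translation initiation factors and other genes named with them, it was 0.26 (0 higher, 2 lower). The 2 lower genes are not initiation factors themselves. Eif2ak3, the PERK kinase that blocks initiation under stress, fell (686 to 742 units with Dox and 1806 to 1927 without), as did Eif4ebp3, which holds back the cap-binding factor (0 to 3.56 units with Dox and 3.42 to 6.57 without). Eif4ebp3 was near the floor and did not pass without the filter on low values, after quantile normalization, with a pseudocount of 10 or without moderation of the variance. Among 16 chaperonins and mitochondrial chaperones (median 0.51) only Hspd1, HSP60, passed (15665 to 16348 units with Dox and 7231 to 7395 without). Among 20 genes of mitochondrial import and genome expression (median 0.63) only Peo1, the mitochondrial DNA helicase, passed (1489.6 to 1557 units with Dox and 609.8 to 670.1 without). After TMM rescaling 3 of these 20 and 3 of the 75 mitochondrial ribosomal proteins passed as higher. As deposited, the counts passing in all these lists were near or under the shares of all genes tested, 4.49% higher and 15% lower. By adjusted p alone 31.5% of all genes tested were higher.

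Promoter windows from 250 bases before to 50 after the start site (RefSeq, GRCm38.p6) were at hand for 36 of the 44 ribosome biogenesis genes, 25 of the 30 MYC-induced genes and 69.8% of all genes tested. The E-box CACGTG, a palindrome and so the same on both strands, was in 20.5% of the 39 windows of the first list and 29.0% of the 31 of the second, against 7.2% of all 32851 windows and 9.5% of the 13465 windows of genes tested. It was in 13.4% of the windows of genes that passed as higher and 6.5% of those of genes that passed as lower. Because about 3 in 10 genes tested had no window, these last 3 shares describe the matched genes alone and serve as no check of the lists. Of the 24 passing members of both lists with a window, 3 held it (Hspd1, Nle1 and Apex1). None of the 5 windows of the rising genes of these lists named by the rule held it, so Nle1 and Apex1 were chosen after their values were seen, to show how the E-box lies at the start site. Nle1, a factor of 60S subunit maturation, was read at 691 to 728 units with Dox and 321 to 358 without (change 1.06), and Apex1, the abasic site endonuclease of base excision repair, at 2922 to 3005 units with Dox and 1404 to 1485 without (change 1.04). Capitals mark CACGTG. It begins at base 24 of the Nle1 transcript (chr11:82908346-82908645, minus strand), and in Apex1 (chr14:50924699-50924998, plus strand) at 24 bases before the start site and at bases 1 and 22 of the transcript.
Nle1: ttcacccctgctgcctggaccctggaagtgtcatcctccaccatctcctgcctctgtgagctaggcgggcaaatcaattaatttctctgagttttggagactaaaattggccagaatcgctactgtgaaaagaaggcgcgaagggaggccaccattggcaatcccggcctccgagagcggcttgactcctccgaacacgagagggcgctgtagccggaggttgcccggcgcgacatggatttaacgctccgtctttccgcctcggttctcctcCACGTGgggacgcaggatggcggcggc
Apex1: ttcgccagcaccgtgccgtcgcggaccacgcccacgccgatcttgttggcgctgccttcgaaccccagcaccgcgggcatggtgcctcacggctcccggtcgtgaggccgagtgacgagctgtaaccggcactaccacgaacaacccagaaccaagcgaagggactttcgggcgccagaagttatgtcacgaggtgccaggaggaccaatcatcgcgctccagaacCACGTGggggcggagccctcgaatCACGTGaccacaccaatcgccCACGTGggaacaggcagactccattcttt
The match is a description of the letters, and binding was not measured here.

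Nucleotide and one-carbon synthesis rose with ribosome production. Of 33 genes, 10 passed as higher and 0 as lower, with a median of 0.68, where 4.49% of all genes tested passed as higher. Cad, the trifunctional enzyme that starts pyrimidine synthesis, was read at 5538, 5569, 5877 and 5905 units in the 4 libraries with Dox and 2169, 2208, 2300.3 and 2387 units in the 4 without (change 1.34 ± 0.0322 SE). Dhodh, the mitochondrial step of the same pathway, was at 1126 to 1225 units with Dox and 429.8 to 467 without, and Gart, of purine synthesis, at 8047 to 8527 units with Dox and 3373 to 3655 without. In polyamine metabolism 2 of 11 rose, Srm and spermine synthase Sms (488 to 540.0 units with Dox and 241 to 269 without; its log2 change was 1.0 and did not pass without the second Dox library), and Smox, spermine oxidase, fell (259.9 to 292 units with Dox and 614 to 655 without). Of 16 genes of glutamine and amino acid supply only Gls2 passed (median 0.35).

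Of 22 genes of glycolysis and lactate export 2 passed as higher and 1 as lower (median 0.25), where 4.49% and 15% of all genes tested did. By adjusted p alone 15 were higher and 5 lower, where 31.5% and 44.0% of all genes tested were. Slc16a1, the lactate transporter MCT1, was read at 7019, 6961, 6785 and 6842 units in the 4 libraries with Dox and 2232, 2189, 2272 and 2199 units in the 4 without (change 1.63 ± 0.0242 SE), and Pdk1, the kinase that shuts pyruvate out of mitochondria, at 1348, 1367, 1371 and 1289.8 units in the 4 libraries with Dox and 356, 386, 347 and 365 units in the 4 without (change 1.89 ± 0.0377 SE). Eno2, the neuronal enolase, fell (66 to 74 units with Dox and 178 to 207 without). None of 23 genes of cholesterol synthesis passed (median 0.16), and neither did any of 26 NRF2 and glutathione genes, whose median was -0.07 as deposited and 0.04 after TMM rescaling.

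Cell cycle genes rose by less than 2-fold for the most part. By adjusted p alone 39 of 40 DNA replication genes and all 25 mitosis genes were higher, but only 4 of each passed (medians 0.63 and 0.66), and after TMM rescaling 6 and 8. Over all genes tested 31.5% were higher by adjusted p alone and 4.49% passed as higher. Pold2, a subunit of DNA polymerase delta, was at 2539 to 2812 units with Dox and 1112 to 1163 without, the replication factor Mcm10 at 1603 to 1636 units with Dox and 751 to 803 without, Rpa2, which coats single-stranded DNA, at 1461 to 1592 units with Dox and 701 to 745 without, and the GINS subunit Gins1 at 411 to 426 units with Dox and 188 to 226 without. The log2 change of Gins1 did not pass without the first Dox library (1.0) or the second no Dox library (0.96). Aurkb, the kinase of the chromosome passenger complex, was at 1850.5 to 1955 units with Dox and 837 to 875 without, the mitotic checkpoint kinase Bub1b at 2731 to 2797 units with Dox and 1277 to 1357 without, separase Espl1 at 2122 to 2319.9 units with Dox and 996 to 1079 without and the spindle kinesin Kif11 at 3040.0 to 3104 units with Dox and 1463 to 1518 without. Of 16 G1 cyclins, kinases and inhibitors, Ccne1, cyclin E1, rose (1011 to 1048 units with Dox and 419.9 to 449.7 without), and the inhibitors Cdkn2b and Cdkn1c (30.4 to 34.7 units with Dox and 58.4 to 79.4 without) fell. E2f2 was the only 1 of 13 E2F and RB family genes to pass (347 to 406 units with Dox and 119.8 to 153 without). The counts passing in the G1 and E2F lists are near or under the shares of all genes tested, 4.49% higher and 15% lower.

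Of 21 genes of the p53 list, 8 passed as lower and 0 as higher (median -0.43; 6 and 1 after TMM rescaling), where 15% of all genes tested were lower and 4.49% higher. Fas, the death receptor, was at 10.5 to 25.6 units with Dox and 83.2 to 96.5 without, Trp53inp1, a promoter of autophagy and cell death, at 60.4 to 66 units with Dox and 268 to 278 without, the polo-like kinase Plk2 at 2713 to 3169.8 units with Dox and 7639 to 7919 without, and the BH3-only gene Pmaip1, NOXA, at 846 to 967 units with Dox and 2106 to 2292 without. Of 22 apoptosis regulators 7 were lower and 2 higher (median -0.46), and those that moved were not all of 1 function. The 2 that rose are BH3-only killers, Hrk (163 to 206 units with Dox and 20.4 to 22.9 without, change 2.99) and Bcl2l11, BIM (786 to 809 units with Dox and 381 to 406 without), and those that fell include the survival genes Bcl2l1, BCL-XL (1611 to 1795 units with Dox and 4281 to 4374 without), and Birc3, cIAP2 (100.1 to 107 units with Dox and 316 to 332 without).

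**Figure D3:**
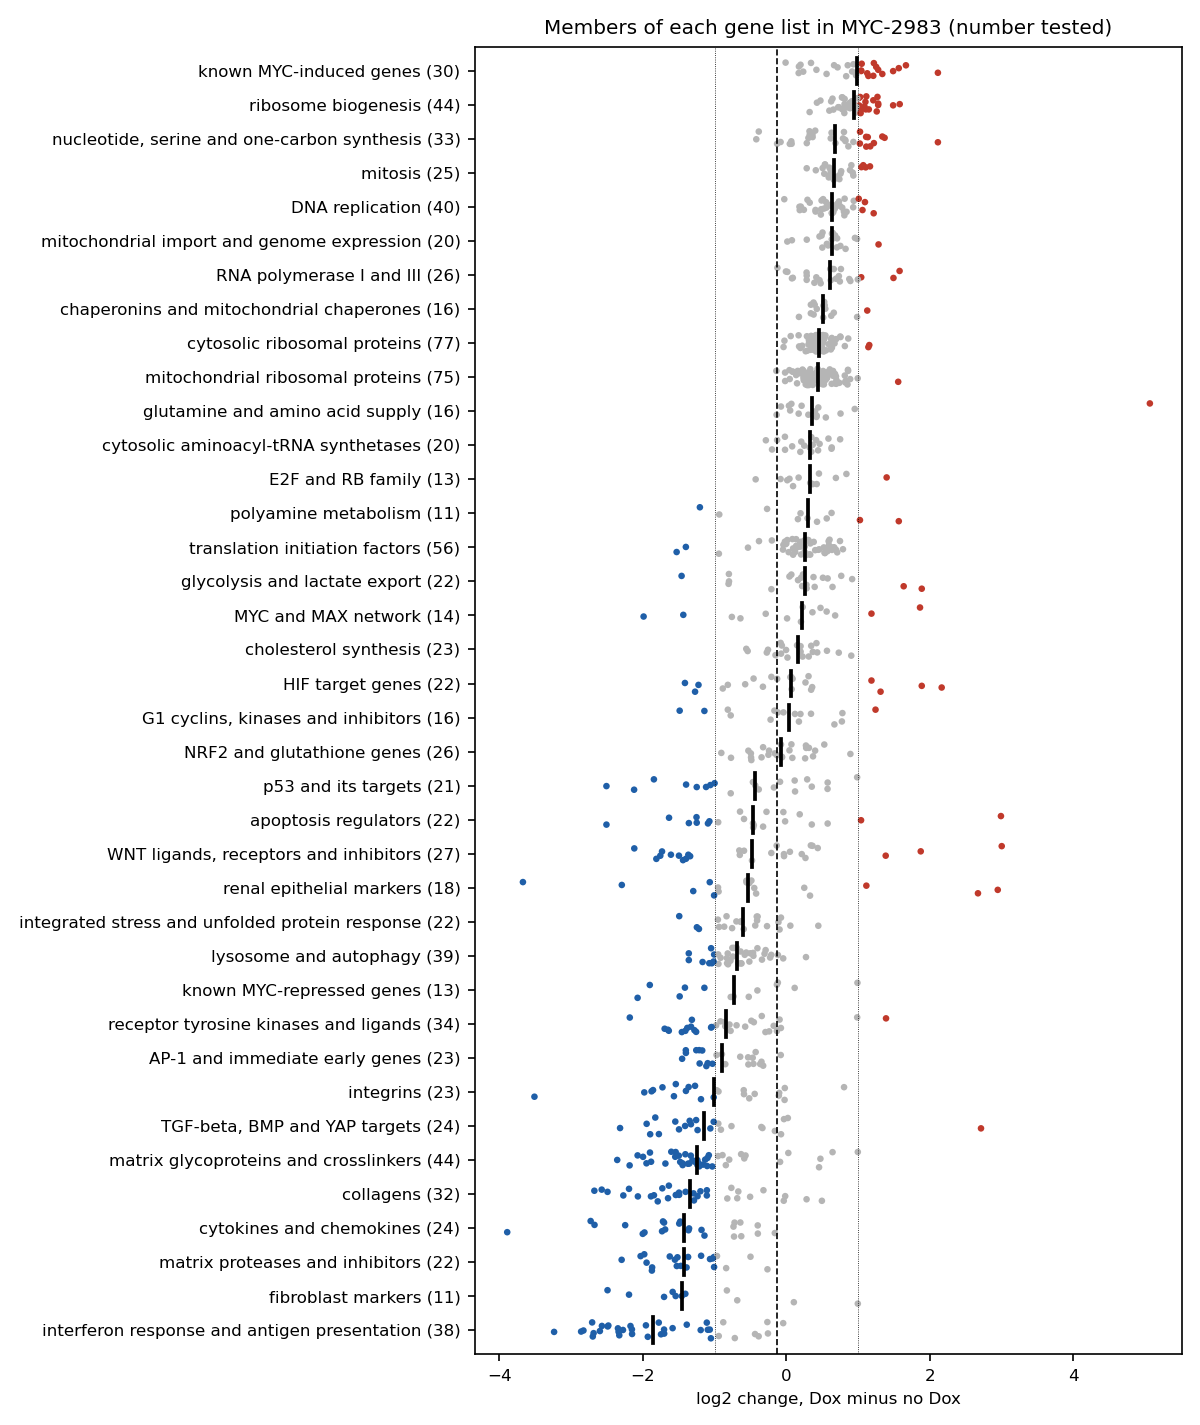
Change with Dox (x axis, log2) of each member of the lists with at least 10 genes tested (rows, number tested in brackets). Points are genes, red or blue where they passed, black bars are medians, the dashed line is the median of all genes tested (-0.13) and dotted lines mark 2-fold; the MYC-induced list is at the top (median 0.98) and the interferon list at the bottom (-1.85).

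Genes of the extracellular matrix and of its breakdown fell in large numbers. Of 32 collagen genes 22 were lower and 0 higher with Dox (median -1.35), of 44 matrix glycoproteins and crosslinkers 31 and 0 (median -1.24; 27 and 1 after TMM rescaling), and of 22 matrix proteases and inhibitors 18 and 0 (median -1.43), where 15% of all genes tested were lower. The basement membrane chains Col4a4 and Col4a3 fell most among collagens. Col4a4 was read at 153, 165, 128 and 197 units in the 4 libraries with Dox and 946, 1086, 1027 and 1027 units in the 4 without (change -2.68 ± 0.0879 SE) and Col4a3 at 131, 101, 74.8 and 169.8 units in the 4 libraries with Dox and 640.4, 718, 686 and 689 units in the 4 without (change -2.57 ± 0.156 SE). Col1a1, a chain of fibrillar collagen, was at 53.6 to 83.7 units with Dox and 381 to 428 without, and Col11a1 at 50 to 58.9 units with Dox and 236 to 286 without.

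Among glycoproteins and crosslinkers, the fall of Thbs1 given above was joined by Ltbp2, a latent TGF-beta binding protein (252 to 298 units with Dox and 1308 to 1432 without), the laminin chain Lamb3 (53.1 to 66 units with Dox and 253 to 299 without) and the lysyl oxidase Loxl2 (1471 to 1843 units with Dox and 6064 to 6526 without). Among proteases, Plau, urokinase, fell (575 to 712 units with Dox and 3108 to 3244 without), as did the aggrecanase Adamts5 (858 to 1056 units with Dox and 3478 to 3621 without) and Mmp19 (10 to 16.7 units with Dox and 52 to 58.4 without).

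Receptors for matrix and the signals that raise it moved the same way, where 15% of all genes tested passed as lower and 4.49% as higher. Of 23 integrins 12 were lower and 0 higher (median -1.01), among them Itgav (1882 to 2171 units with Dox and 5944 to 6056 without), its partners Itgb3 (263 to 365 units with Dox and 1121 to 1171 without) and Itgb6 (133 to 157 units with Dox and 518 to 529 without), and the collagen receptor chain Itga1 (283 to 330.2 units with Dox and 1167 to 1279.7 without). Of 24 genes of the TGF-beta, BMP and YAP list 14 were lower and 1 higher (median -1.15). Tgfb3, a TGF-beta ligand, was read at 1813, 1930.4, 1839 and 1887 units in the 4 libraries with Dox and 9308, 9066, 9168 and 9706 units in the 4 without (change -2.32 ± 0.0281 SE), Bmp4 at 119.7 to 143 units with Dox and 478 to 547 without, and the YAP targets Ctgf and Ankrd1 at 7869 to 9554 units with Dox and 31391 to 34392 without and 3297 to 3921 units with Dox and 12777 to 13484 without. The 1 gene that was higher was Bmp7 (9.96 to 15.7 units with Dox and 0 to 2.62 without), named after its value was seen because it was below the level set for named genes. AP-1 and immediate early genes were lower in 10 of 23 and higher in 0 (median -0.90), including Fosl2 (1576 to 1679 units with Dox and 4248 to 4347 without) and the MAP kinase phosphatases Dusp1 (446 to 472 units with Dox and 1222 to 1312 without), Dusp6 (314 to 358 units with Dox and 838 to 897 without) and Dusp5 (46.1 to 56 units with Dox and 105 to 133 without).

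The interferon list had the lowest median of those with at least 10 genes tested. Of 38 genes of interferon response and antigen presentation, 30 were lower and 0 higher, with a median of -1.85 (-1.74 after TMM rescaling, -1.61 after quantile normalisation), and 37 were lower by adjusted p alone. Over all genes tested these shares were 15% passing as lower and 44.0% lower by adjusted p alone. Irf7, the factor that amplifies type I interferon, was read at 21.2, 26.1, 20 and 26.2 units in the 4 libraries with Dox and 128, 209, 197 and 177 units in the 4 without (change -2.86 ± 0.146 SE, adjusted p = 2.37e-12). The first no Dox library was lower than the other 3, and all 4 lay above every Dox value, as the rule for named genes required. Usp18, which takes ISG15 off proteins, was at 13.1 to 25.7 units with Dox and 113 to 163 without, Ifi44 at 9.79 to 22.5 units with Dox and 76.8 to 119.8 without, and the guanylate binding protein Gbp2 at 40.6 to 64.8 units with Dox and 339.9 to 374 without. Ifit3, an RNA-binding antiviral effector, was at 25 to 45.3 units with Dox and 201 to 231 without, and the peptide transporter Tap1 at 15.7 to 22.8 units with Dox and 78.7 to 115 without. Of 12 leukocyte markers only 4 could be tested, and 4 were listed at 0 in all 8 libraries. The 4 tested were lower by adjusted p alone, where 44.0% of all genes tested were. The level summed over the list of 12 was 557 to 619 units with Dox and 1308 to 1386 without. Most of it was Cd14 (339.9 to 375 units with Dox and 867 to 917 without), and Ptprc, the defining pan-leukocyte marker, was at most 15.7 units in any library. The part of these markers in the fall of the interferon genes was not tested.

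Windows were at hand for 31 of the 38 interferon genes. The core of the interferon-stimulated response element, GAAA repeated after any 2 bases, on either strand, was in 36.1% of their 36 windows against 3.4% of all windows of the same length and 2.9% of those of genes tested that had one, and 0 of the 39 ribosome biogenesis windows held it. The passing members shown, chosen after their values were seen, are Gbp2 (chr3:142620413-142620712, plus strand) and Ifit3 (chr19:34583279-34583578, plus strand). Capitals mark the core. It begins 59 bases before the start site of Gbp2 and 156 and 122 bases before that of Ifit3. Uba7 (chr9:107975317-107975616, plus strand), the first of the 12 largest falls, is shown beside them because its window holds neither this core nor CACGTG.
Gbp2: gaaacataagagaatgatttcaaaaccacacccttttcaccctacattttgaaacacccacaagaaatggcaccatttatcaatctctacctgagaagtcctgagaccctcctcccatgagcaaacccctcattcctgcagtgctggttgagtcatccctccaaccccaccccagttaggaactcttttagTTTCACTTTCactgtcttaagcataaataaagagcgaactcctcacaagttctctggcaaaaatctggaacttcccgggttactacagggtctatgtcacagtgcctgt
Ifit3: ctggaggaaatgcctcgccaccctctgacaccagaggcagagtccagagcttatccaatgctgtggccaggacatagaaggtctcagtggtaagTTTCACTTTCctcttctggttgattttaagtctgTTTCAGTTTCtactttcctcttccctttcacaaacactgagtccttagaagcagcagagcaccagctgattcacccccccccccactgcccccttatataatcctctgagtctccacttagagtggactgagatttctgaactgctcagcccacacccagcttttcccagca
Uba7: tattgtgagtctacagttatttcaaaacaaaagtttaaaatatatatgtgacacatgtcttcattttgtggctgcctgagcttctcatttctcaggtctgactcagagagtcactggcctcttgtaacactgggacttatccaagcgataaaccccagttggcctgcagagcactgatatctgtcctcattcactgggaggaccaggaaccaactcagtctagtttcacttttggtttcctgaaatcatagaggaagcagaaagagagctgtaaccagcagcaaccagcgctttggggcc
These letters do not say which factor binds, and no match in a window says nothing about the rest of the gene.

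Cytokines and chemokines fell with the interferon genes. Of 24 genes 16 were lower and 0 higher (median -1.42), where 15% of all genes tested were lower. Besides Cxcr7, the neutrophil chemokine Cxcl5 was read at 52, 42.4, 40.1 and 39.8 units in the 4 libraries with Dox and 299, 301, 288 and 282 units in the 4 without (change -2.73 ± 0.0913 SE), and Cxcl2, of the same family, at 5.77 to 15.2 units with Dox and 47.3 to 61.9 without. Csf3, G-CSF, was at 10.3 to 15.7 units with Dox and 79.4 to 88.7 without.

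Of 34 receptor tyrosine kinases and ligands 13 were lower and 1 higher (median -0.84), where 15% of all genes tested were lower and 4.49% higher. Pdgfb, a PDGF chain, was at 1102 to 1164 units with Dox and 3549 to 3734 without, its receptor Pdgfrb at 36.4 to 59.3 units with Dox and 139.8 to 156 without, the AXL ligand Gas6 at 295 to 337 units with Dox and 969 to 1034 without, and the EGF receptor ligand Ereg at 11.9 to 18.5 units with Dox and 39.9 to 59.1 without. The gene that rose was Fgfr3 (127 to 151 units with Dox and 44 to 57.1 without, change 1.39). Of 27 WNT ligands, receptors and inhibitors 10 were lower and 3 higher (median -0.48). Wnt7b (61.2 to 80.7 units with Dox and 224 to 252 without), Wnt7a (11.4 to 21.2 units with Dox and 41.1 to 71.5 without), Wnt4 (51.1 to 59.8 units with Dox and 159 to 179 without) and the inhibitor Dkk3 (1341 to 1561 units with Dox and 4833 to 5088 without) fell, and Sfrp2, a secreted frizzled-related protein, rose (205 to 239.8 units with Dox and 23.9 to 33 without, change 3.0). The other genes that rose were Lgr5, an R-spondin receptor (4.72 to 9.24 units with Dox and 0.58 to 1.31 without), and Rnf43, a ligase that removes frizzled receptors (24.6 to 43.3 units with Dox and 9.79 to 19.7 without).

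Of 39 lysosome and autophagy genes 36 were lower by adjusted p alone, where 44.0% of all genes were, and 8 passed as lower, where 15% of all genes did (median -0.69), and 3 after TMM rescaling. Grn, progranulin, was at 2898 to 3122 units with Dox and 6551 to 7004 without, the cathepsins Ctsd and Ctsh at 6452 to 7039.8 units with Dox and 13741 to 14443 without and 43 to 47.1 units with Dox and 110.0 to 128 without, and the autophagy gene Wipi1 at 165 to 221 units with Dox and 462 to 501 without. Ctsd no longer passed after TMM rescaling. Of 22 genes of the integrated stress and unfolded protein response 3 were lower and 0 higher (median -0.61), a share no larger than that of all genes, Xbp1 (897 to 1026 units with Dox and 2632 to 2689.9 without), Dnajb9 (174 to 196 units with Dox and 424 to 457 without) and Ddit3, CHOP (223 to 235 units with Dox and 491 to 572 without).

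VHL marks HIF alpha subunits for destruction, and Vhl is intact in this line. Of 22 HIF target genes 4 were higher, where 4.49% of all genes were, and 3 were lower, a share near the 15% of all genes, with a median of 0.06. Car12, a membrane carbonic anhydrase, was read at 1886, 1747, 1750.0 and 1853 units in the 4 libraries with Dox and 389, 380.3, 425 and 418 units in the 4 without (change 2.16 ± 0.0401 SE), and the prolyl hydroxylase Egln3 at 187 to 220.2 units with Dox and 68.2 to 98.7 without. Pdk1 and Mxi1, given above, are also on this list. Ndrg1 and the vasodilator peptide gene Adm (43.5 to 49.8 units with Dox and 99.4 to 120.1 without) fell, as did Car9, another carbonic anhydrase (8.39 to 14.2 units with Dox and 20.3 to 32.2 without).

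Renal epithelial markers moved in both directions, while the EMT genes of the study were mostly lower. Of the 8 EMT genes of the study, 3 were lower and 0 higher (median -0.73). By adjusted p alone 7 of them were lower and 1 higher, where 44.0% and 31.5% of all genes tested were. That list was the choice of the study, so it is not independent evidence of a direction. Vim, the intermediate filament vimentin, was read at 24519, 23425, 23624 and 26023 units in the 4 libraries with Dox and 53843, 52204, 54509 and 56092 units in the 4 without (change -1.15 ± 0.0379 SE), N-cadherin Cdh2 at 5384 to 5972 units with Dox and 11839 to 12183 without, and Snai2, SLUG, at 44.4 to 51.9 units with Dox and 126 to 142 without. Cdh2 no longer passed after TMM rescaling (-0.94), nor Vim after quantile normalisation. Cdh1, E-cadherin, stood at 317 ± 8.89 units with Dox and 267 ± 11.6 without (SD, n = 4). Its change of 0.25 was the highest of the 8 and did not reach 2-fold. Of 18 renal epithelial markers 3 were higher and 5 lower, where 4.49% and 15% of all genes tested were. The nephron transcription factor Hnf4a rose, as did the homeobox gene Emx1 (7.34 to 15.8 units with Dox and 0 to 1.31 without). Hnf4a was read at 446, 439.9, 482 and 395 units in the 4 libraries with Dox and 194, 209, 209 and 198 units in the 4 without (change 1.11 ± 0.0586 SE). Lhx1, of early nephron patterning, fell (50.9 to 71.2 units with Dox and 136 to 174 without), as did the claudin Cldn4 (1.08 to 2.62 units with Dox and 10.3 to 15.1 without), Krt7 (0.56 to 1.09 units with Dox and 22.3 to 25 without) and the keratins Krt8 (287 to 304 units with Dox and 570.2 to 604 without) and Krt18 (206 to 236 units with Dox and 414 to 495 without), although neither Krt8 nor Krt18 passed after TMM rescaling. Pax8 and Cdh16 were lower with Dox by less than 2-fold. Krt19 was at or near the floor in all 8 libraries, at most 2.72 units.

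Of 12 proximal tubule markers 6 could be tested. Ggt1, gamma-glutamyl transferase, rose (276 to 304 units with Dox and 108 to 120.4 without), while Havcr1, KIM-1, the tubule injury marker, was read at 3448, 3366, 2969 and 3426 units in the 4 libraries with Dox and 15174, 14171, 14904 and 15236 units in the 4 without (change -2.17 ± 0.0401 SE) and Cubn, the partner of Lrp2, at 23.6 to 38 units with Dox and 82.2 to 109 without. Of 8 tested markers of loop, distal tubule and collecting duct 3 were lower, Gata3 (26.3 to 43.5 units with Dox and 76.1 to 104 without), the chloride exchanger Slc26a4 (0 to 1.08 units with Dox and 0 to 4.35 without) and the distal tubule cotransporter Slc12a3, which was listed at 0 in all 4 Dox libraries and was at 24.3 to 38.8 units without. Slc26a4 was at or near the floor and did not pass without moderation of the variance. Fibroblast markers were lower in 7 of 11 and higher in 0 (median -1.46; 7 and 1 after TMM rescaling), where 15% of all genes tested were lower. By adjusted p alone 9 were lower and 1 higher, and the highest change was 0.99. The summed level of the list was 10710 to 12100 units with Dox and 32410 to 33660 without. Most of that sum was Postn, periostin (8665 to 9603 units with Dox and 26439 to 27627 without), and S100a4 was at 1236 to 1681 units with Dox and 4282 to 4383 without. The defining surface marker Thy1 was at 6.81 to 10.1 against 26.9 to 44.1 units, and Fap was at or below 0.58 units in every library. Whether a share of fibroblast-like cells moves with Dox was not tested, and fewer cells of a kind and less RNA per cell cannot be told apart in bulk RNA. Endothelial markers summed to 25 to 36.8 units with Dox and 49.2 to 66.5 without, and of 6 tested only Eng, endoglin, was lower (8.16 to 15.2 units with Dox and 26.2 to 33.6 without). Without the second Dox library its change was -0.92 and did not pass. Of 4 leukocyte markers tested Cd68 (14 to 19.9 units with Dox and 38.1 to 43 without) and Cd14 (given above) were lower, while Cd3e and Ms4a1 were listed at 0.

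Compared with VM and VIM cells, which share no library with MYC-2983, the change with Dox was alike in broad outline. The log2 changes of MYC-2983 had r = 0.78 with VM cells (13924 genes) and r = 0.76 with VIM cells (13754 genes), taken over genes, which do not stand in for replicates. Of the 678 genes higher in MYC-2983, 300 (44.2%) were higher in both other lines, and of the 2264 lower genes 1101 (48.6%) were lower in both. The share of all genes tested that passed in both other lines was not taken, so these shares cannot be called high or low. The difference in change itself passed for 1389 of 15812 genes against VM cells (8.78%, 874 more positive and 515 more negative in MYC-2983) and for 1416 of 15629 against VIM cells (9.06%, 706 and 710). Line, genotype and the animal of origin cannot be told apart in these differences. Another 258 higher genes passed in neither other line, and for 131 of these both differences passed. Of the lower genes, 579 passed in neither other line and both differences passed for 200. For these counts, too, no share of all genes was taken.

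The rise of ribosome biogenesis genes was smaller in MYC-2983 than in either other line. Its median was 0.93 here, 1.5 in VM and 1.6 in VIM cells, and by adjusted p alone 42 of the 44 members had a more negative difference from VM cells and 42 from VIM cells, with 0 more positive in either. Over all genes, 17.5% were more negative and 28.7% more positive against VM cells, and 23.9% and 23.6% against VIM cells. For 30 MYC-induced genes the counts were 27 and 28 more negative, and for 33 genes of nucleotide, serine and one-carbon synthesis 30 and 27. Most of these differences were under 2-fold. Srm was the example past it in both, with a difference of -1.15 ± 0.0513 SE from VM cells and -1.15 ± 0.0469 SE from VIM cells. Its means with Dox were 6264, 5682 and 5617 units in MYC-2983, VM and VIM cells, and those without were 2115, 864 and 856 units. Myc itself fell by less here, with a difference of 0.39 ± 0.0708 SE, adjusted p = 0.000107, from VM and 0.52 ± 0.0677 SE, adjusted p = 1.39e-06, from VIM cells (limma), its no Dox means being 1831, 1364 and 1479 units and its Dox means 676, 384 and 381 units.

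**Figure D4:**
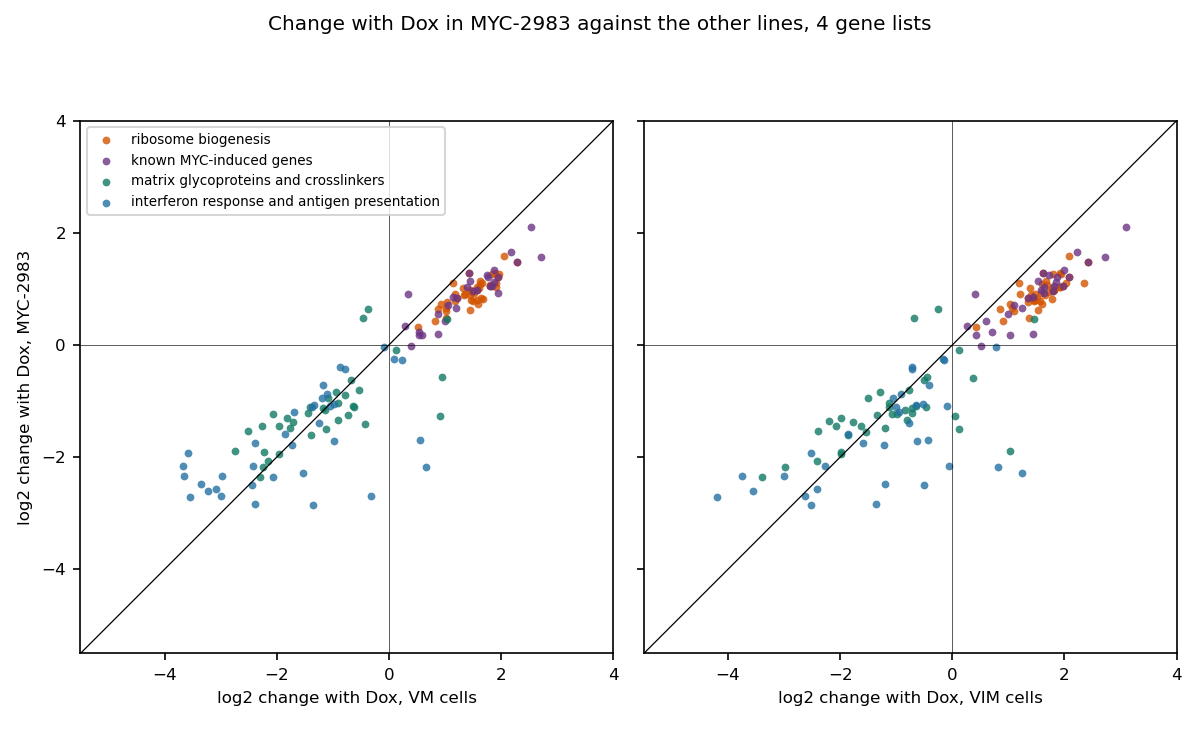
Change with Dox (log2) of the members of 4 gene lists in MYC-2983 (y axis) against VM cells (left, x axis) and VIM cells (right, x axis), with the line of equal change. Ribosome biogenesis and MYC-induced genes lie mostly below the line on the right of 0, and the interferon genes spread on both sides of it.

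For several of the genes that rose, the change was more positive in MYC-2983 than in both other lines. Lpl, Gls2, Slc6a15 and Gldc were named as among the largest rises here, a choice that favours differences of this sign. Lpl differed by 2.46 ± 0.444 SE from VM cells, where its means were 38.5 units with Dox and 1.47 without, and by 3.32 ± 0.442 SE from VIM cells, where they were 14.7 units with Dox and 0.76 without. The floor without Dox was 1.16 to 2.65 units in VM and 2.49 to 3.35 in VIM cells. Lpl without Dox was thus near or under the floor there, and the size of both differences is uncertain. Gls2 rose in all 3 lines to 308 to 510.5 units with Dox, from means of 12.1 units here, 41.9 in VM and 42.6 in VIM cells without, and the differences were 1.48 ± 0.158 SE and 2.21 ± 0.189 SE. Slc6a15 likewise differed by 1.99 ± 0.12 SE and 1.42 ± 0.118 SE. For Gldc the difference from VM cells was 3.13 ± 0.162 SE, where its means were 341 units with Dox and 176 without. From VIM cells it was 4.13 ± 0.422 SE, where the means were low, at 5.3 units with Dox and 5.55 without. Pdk1 differed by 1.42 ± 0.05 SE and 1.49 ± 0.0443 SE, and its level was lower in MYC-2983 (1344 units with Dox, 363 without) than in VM cells (5331 units with Dox and 3855 without) or VIM cells (4259 units with Dox and 3246 without), the lines with inactivated Vhl.

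The changes of the transcription factors Hnf4a and Mlxipl were also more positive here. Hnf4a differed by 1.03 ± 0.193 SE from VM cells and 1.11 ± 0.233 SE from VIM cells, and Mlxipl by 2.52 ± 0.427 SE and 3.36 ± 0.542 SE. Hnf4a was listed at 0 in all VIM libraries and had means of 24.5 units with Dox and 22.9 without in VM cells. Mlxipl was near the floor in VM cells, listed at 0 with Dox and with a mean of 0.80 units without, and fell in VIM cells, where its means were 1.19 units with Dox and 5.67 without. Lhx1 went the other way, with differences of -2.30 ± 0.244 SE and -1.05 ± 0.329 SE. Fgfr3 differed by 1.65 ± 0.127 SE and 1.45 ± 0.242 SE, and Sfrp2 by 1.23 ± 0.313 SE and 2.12 ± 0.433 SE. Sfrp2 was near the floor in VM cells without Dox (mean 1.5 units) and under it in VIM cells (means 1.37 units with Dox and 0.21 without). The size of its differences is therefore uncertain.

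Among the 5 most positive differences from VM cells, Cbs, the cystathionine beta-synthase of cysteine production, rose here (604 to 739.5 units with Dox and 175 to 209 without) and fell there (means 34.7 units with Dox and 163 without), a difference of 4.0 ± 0.193 SE. Tdrd1 (difference 4.46 ± 0.444 SE), Camkv (4.71 ± 0.364 SE) and Myh7b (4.36 ± 0.524 SE) had means under 2 units in VM cells with or without Dox. Snurf, of the imprinted Snrpn locus, was at 33.5 to 43.9 units with Dox and 0.54 to 2.89 without in MYC-2983 and had means of 143 units with Dox and 129 without in VM cells, so that it differed by 4.13 ± 0.313 SE. It shares its transcript with Snrpn, and the split of reads between them is uncertain. Against VIM cells the 5 most positive were AI118078 (5.50 ± 0.478 SE), Epha8 (4.99 ± 0.487 SE), Myh7b (4.61 ± 0.475 SE), Hdac9 (4.58 ± 0.277 SE) and Snurf (4.47 ± 0.308 SE). Hdac9, a class IIa deacetylase, rose here (89.1 to 110.0 units with Dox and 25 to 41.9 without) and fell in VIM cells (means 11.5 units with Dox and 92.4 without). AI118078 and Epha8 were at or near 0 in VIM cells.

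Among the most negative differences, the acute phase gene Saa3 (-3.52 ± 0.504 SE from VM cells) and the interferon-inducible GTPase Iigp1 (-3.12 ± 0.378 SE) fell in MYC-2983 (9.24 to 13.6 units with Dox and 87.4 to 94.1 without for Saa3, 10.3 to 15.2 units with Dox and 89.2 to 137 without for Iigp1) and had means under 2 units in VM cells. The glutamate transporter Slc1a3 (-3.15 ± 0.242 SE) was at 763 to 822 units with Dox and 1029.5 to 1098 without here, whereas its means in VM cells were 18.3 units with Dox and 2.01 without. The zinc finger gene Snai3 (-3.16 ± 0.213 SE) did not pass in MYC-2983 (21.1 to 30.4 against 38.1 to 52 units) and rose in VM cells (means 87.4 units with Dox and 16.5 without), and Pdgfrl (-3.09 ± 0.36 SE) fell here (17.9 to 22.4 units with Dox and 63.8 to 85.6 without) and had means under 2 units there. Against VIM cells, Tap1 fell here and rose there, with means of 26.3 units with Dox and 11.2 without and a difference of -3.53 ± 0.335 SE. Scara5 (-3.44 ± 0.511 SE) was near the floor in VIM cells. Klhdc7a (-3.39 ± 0.272 SE) fell here (21.8 to 27.6 units with Dox and 99.7 to 138 without) and had means of 21.6 units with Dox and 9.34 without there. Ccnb1ip1 (-5.41 ± 0.395 SE) and Nr1h5 (-5.40 ± 0.448 SE) were at or under the floor in MYC-2983 and rose in VIM cells.

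By adjusted p alone 14 of the 38 interferon genes were more positive and 9 more negative than in VM cells, where 28.7% and 17.5% of all genes were, and 8 and 18 than in VIM cells, where 23.6% and 23.9% were. For cytokines and chemokines the counts were 4 and 10 of 26 against VM cells and 4 and 11 of 25 against VIM cells. Csf3 fell more here than in either other line (differences -1.04 ± 0.287 SE and -1.29 ± 0.358 SE). In VIM cells its means were 1.79 units with Dox, where the floor was 1.97 to 2.42, and 6.64 without. The size of its difference from VIM cells is therefore uncertain. Cxcl2 (-1.13 ± 0.282 SE and -2.89 ± 0.555 SE) and Spib (-1.93 ± 0.304 SE and -3.37 ± 0.483 SE) fell more than in VM cells and did not pass in VIM cells, where their means were under 3 units. Mycn, near the floor with Dox in both other lines, fell less here (2.13 ± 0.435 SE and 1.25 ± 0.357 SE), but its difference from VIM cells was -0.07 with a pseudocount of 10. Krt8 also fell less here (2.67 ± 0.208 SE and 1.14 ± 0.148 SE). Col4a4 and Col4a3 fell less here than in VM cells (1.54 ± 0.224 SE and 1.03 ± 0.343 SE) and in VIM cells (2.60 ± 0.226 SE and 1.68 ± 0.277 SE), from a higher level without Dox (means 1021 and 683 units here, against 96.2 and 86.5 in VM cells). The difference of Col4a3 from VM cells no longer passed without the first (0.97) or the fourth Dox library (0.84), and was 0.06 with a pseudocount of 10. That of Csf3 from VM cells was -0.97 without the second or the third Dox library, that of Cxcl2 -0.87 without the fourth, and that of Hnf4a 0.98 without the third. That of Lhx1 from VIM cells was -0.95 without the third Dox library and -0.99 without the third no Dox library.

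**Figure D5:**
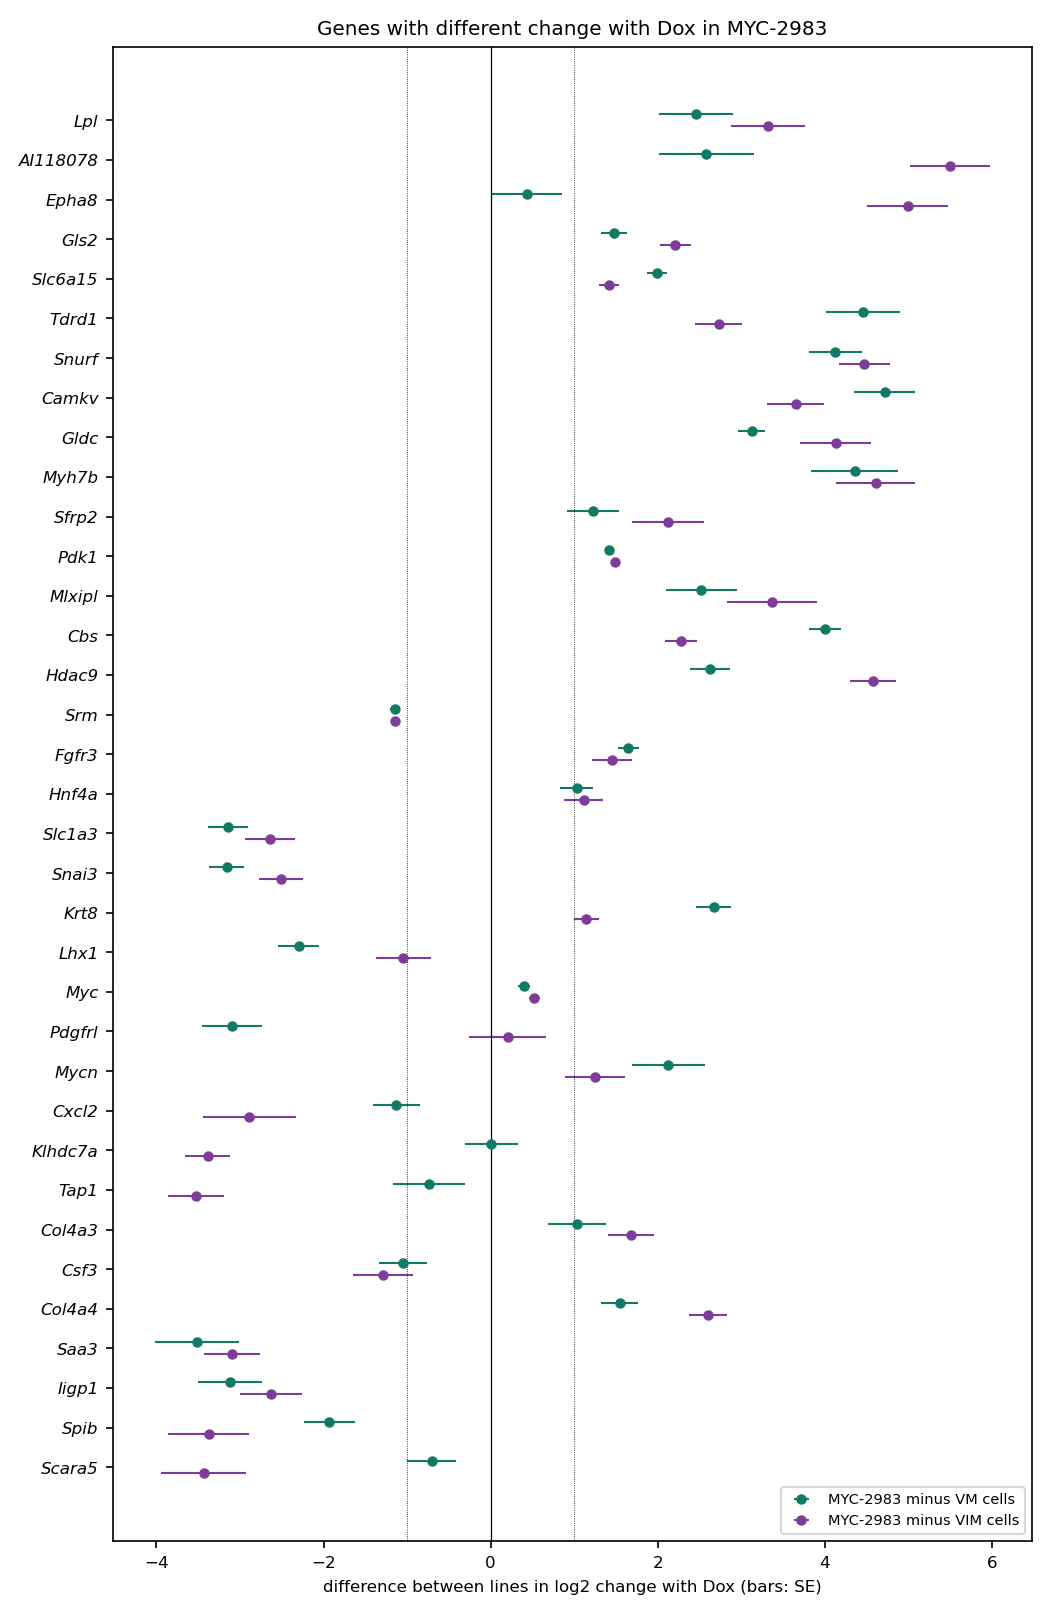
Difference in change with Dox (x axis, log2, bars SE) between MYC-2983 and VM cells (green) or VIM cells (purple) for the genes described. Dotted lines mark 2-fold. Lpl, Gldc and Myh7b lie right of 2-fold in both, and Snai3, Slc1a3, Saa3 and Iigp1 left of it in both.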

How the data were processed

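Per the study's methods, poly(A) RNA was made into TruSeq Stranded libraries and read paired-end on an Illumina NextSeq. The authors aligned reads to mm9 with MapSplice, sorted and filtered them with Picard 1.64, SAMtools and UBU, and estimated gene levels with RSEM on UCSC knownGene. The deposited values are a normalised signal, upper quartile normalised RSEM estimates, and not counts. Of 21705 rows, 21703 were used, a symbol listed more than 1 time being dropped.

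Here limma 3.58.1 in R 4.3.3 (eBayes with a trend) was run on log2(value + 1), pseudocount 1, for genes above 0 in at least 4 libraries, two-sided, with Benjamini-Hochberg adjustment over all genes tested. A gene passed with adjusted p under 0.05 and a log2 change past 1. Each of the VM and VIM comparisons used an interaction term over 16 libraries. Low values (up to 20 reads) were whole multiples of 1 read, within 0.1 read, for 95.9 to 96.7% of genes, from which depth and the floor of 3 reads were estimated, and these cover counting error only. On simulated data for the MYC-2983 comparison, 200 of 200 changed genes were called, with 8 others of 15207. The changed genes all had a mean of at least 50 units, changes past 2-fold and a fixed spread between libraries. The recovery of low genes and of changes near the threshold was not tested.

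Named genes are the 3 engineered genes, the 12 largest rises and falls with a mean of at least 50 units and no overlap, up to 4 members of each list in each direction, the 5 largest differences in each direction per line, and cell type markers. Bmp7, Mrpl23, Eif4ebp3, Emx1, Cldn4, Krt7, Lgr5, Rnf43, Car9, Slc12a3, Slc26a4, Eng, Cd68, Nle1, Apex1, Gbp2 and Ifit3 include genes that complete small counts or show a promoter and were chosen after their values were seen. Members and lists were chosen with earlier results of these data known. Coordinates of genes are mm9, and promoter windows are RefSeq, GRCm38.p6. Alternatives were other pseudocounts, filters, TMM and quantile scaling, no moderation, voom on recovered reads, and leaving out each library. Tumours and other libraries of the series were not used here, and a few members of the lists are counted but not reported here by name. Figures were drawn with matplotlib 3.10.9.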

Additional observations from a re-analysis of the deposited data

Results flagged for a closer look

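Among 333 groups of 4 libraries of the genes described, 19 held a value far from the other 3 by Dixon's test, where chance gives about 1 in 20. In Dox replicate 1, Krt7 stood at 0.559 units, below the 1.048 to 1.087 of the others and Rpl27 stood at 53.67 units, below the 78.3 to 83.33 of the others. In Dox replicate 2, Eng stood at 8.157 units, below the 14.54 to 15.2 of the others and Lgr5 stood at 9.244 units, above the 4.717 to 5.418 of the others. There, Pdgfrb stood at 36.43 units, below the 57.65 to 59.26 of the others. In Dox replicate 3, Havcr1 stood at 2969 units, below the 3366 to 3448 of the others and Mxi1 stood at 2100 units, above the 1952 to 1974 of the others. There, Slc26a4 stood at 1.084 units, above the 0 of the others. In no Dox replicate 1, Ankrd1 stood at 13480 units, above the 12780 to 12810 of the others and Col11a1 stood at 235.9 units, below the 285.3 to 285.6 of the others. In no Dox replicate 2, Adm stood at 99.36 units, below the 117.5 to 120.1 of the others and Ctsh stood at 127.7 units, above the 110 to 112.9 of the others. There, Mmp19 stood at 58.4 units, above the 51.97 to 52.93 of the others and Thy1 stood at 44.09 units, above the 26.9 to 27.75 of the others. In no Dox replicate 3, Gldc stood at 2.893 units, below the 3.264 to 3.29 of the others and Saa3 stood at 87.38 units, below the 93.58 to 94.09 of the others. There, Snurf stood at 2.893 units, above the 0.5441 to 0.658 of the others. In no Dox replicate 4, Fosl2 stood at 4347 units, above the 4248 to 4262 of the others and Peo1 stood at 670.1 units, above the 609.8 to 615.5 of the others. No replicate holds more than 4 of these, and no explanation was weighed.

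Tested as an interaction in limma, the change with Dox was more positive in MYC-2983 than in VM cells, on the log2 scale, for Camkv (4.71), Tdrd1 (4.46), Myh7b (4.36), Snurf (4.13), Cbs (4.0), Gldc (3.13), Krt8 (2.67), Mlxipl (2.52), Lpl (2.46), Mycn (2.13), Slc6a15 (1.99), Fgfr3 (1.65), Col4a4 (1.54), Gls2 (1.48), Pdk1 (1.42), Sfrp2 (1.23), Col4a3 (1.03) and Hnf4a (1.03). It was more negative for Csf3 (-1.04), Cxcl2 (-1.13), Srm (-1.15), Spib (-1.93), Lhx1 (-2.30), Pdgfrl (-3.09), Iigp1 (-3.12), Slc1a3 (-3.15), Snai3 (-3.16) and Saa3 (-3.52). Adjusted p-values ran from 4.76e-14 for Pdk1 to 0.0176 for Col4a3.

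By the same test, the change with Dox was more positive in MYC-2983 than in VIM cells, on the log2 scale, for AI118078 (5.50), Epha8 (4.99), Myh7b (4.61), Hdac9 (4.58), Snurf (4.47), Gldc (4.13), Mlxipl (3.36), Lpl (3.32), Col4a4 (2.60), Gls2 (2.21), Sfrp2 (2.12), Col4a3 (1.68), Pdk1 (1.49), Fgfr3 (1.45), Slc6a15 (1.42), Mycn (1.25), Krt8 (1.14) and Hnf4a (1.11). It was more negative for Lhx1 (-1.05), Srm (-1.15), Csf3 (-1.29), Cxcl2 (-2.89), Spib (-3.37), Klhdc7a (-3.39), Scara5 (-3.44), Tap1 (-3.53), Nr1h5 (-5.40) and Ccnb1ip1 (-5.41). Adjusted p-values ran from 4.27e-16 for Pdk1 to 0.0116 for Lhx1.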

How the results depend on the processing

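No paired analysis was possible because the titles of the MYC-2983 libraries carry no replicate number shared between Dox and no Dox. With a pseudocount of 10 the genes passing fell from 2942 to 1936, and the lower genes to 1473, since that pseudocount shrinks changes of low genes. Quantile normalisation gave 1073 higher and 1480 lower genes. Leaving out each library in turn gave 2915 to 2992 genes, 671 to 705 higher and 2228 to 2311 lower. For the difference from VM cells, a pseudocount of 10 gave 675 genes (386 more positive, 289 more negative), a mean of at least 10 units 856 (253 more negative), a pseudocount of 0.1 gave 322 more negative, and quantile normalisation 579 more positive. Leaving out each MYC-2983 library gave 1304 to 1366, with 807 to 856 more positive and 476 to 518 more negative. For the difference from VIM cells, a pseudocount of 10 gave 674 (340 more positive, 334 more negative) and a mean of at least 10 units 854 (377 more negative). Leaving out each library gave 1363 to 1385, with 659 to 700 and 675 to 705. Filters on low values test fewer genes. The cause of the other shifts was not tested.

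Of the 167 genes with a change in the text, 144 kept direction and side of the threshold under every alternative run and none reversed. Of 58 differences 43 did so, and 1 reversed, that of Mycn from VIM cells (-0.07, pseudocount 10). After TMM rescaling Cdh2, Ctsd, Krt8 and Krt18 no longer passed. After quantile normalisation 14 genes did not, and with a pseudocount of 10, 15. Genes under the floor of 1.57 to 1.97 units cannot be told from absent at this depth.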
